A study of Homo sapiens with 12 samples.

Results

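The genes described here were 10 members of the basic leucine zipper (bZIP) superfamily that lie outside the AP-1 families: CEBPA, CEBPB, CEBPD and CEBPG of the C/EBP family, NFE2L1, NFE2L2 and NFE2L3 of the cap'n'collar family, BACH1 and BACH2, and NFIL3. They were chosen by symbol and found by gene identifier, 10 of the 58721 genes in the count table, and all 10 passed the filter on low counts. They were followed in EW8 and TC71, human Ewing sarcoma cell lines, each carrying a lentiviral Tet-On vector (pLV-TRE3G) that encodes c-Jun and c-Fos joined by a self-cleaving peptide, both induced when doxycycline is added. A second vector gave the Tet-On 3G transactivator from the EF1a promoter. Infected cells were selected with geneticin and puromycin, and no source used here describes single clones. Of each line, 3 libraries came from cells after 72 h in doxycycline at 2000 ng/ml and 3 from cells in the solvent alone (vehicle), so that there were 4 groups and 12 libraries. All 4 groups carried both vectors, also the vehicle groups that the labels call WT. Cells with doxycycline and without the transgenes were not analysed here, so effects of doxycycline itself and of the induced proteins cannot be told apart. Nothing in the labels says whether the 3 libraries of a group came from separate cultures, and p-values then measure only the spread between these libraries.

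bZIP proteins bind DNA as dimers through a basic region and pair through a leucine zipper, and which partners meet decides which sites are read. AP-1, the dimer of Jun and Fos proteins, reads the sequence TGANTCA. C/EBP proteins pair mostly among themselves and drive adipocyte, myeloid and acute-phase gene programs, with CEBPG acting as a partner that lacks a strong activation domain of its own. The cap'n'collar factors and the BACH repressors both need a small MAF protein (MAFF, MAFG or MAFK) as partner, and they compete for antioxidant response elements, whose core TGACNNNGC overlaps in letters with an AP-1 site. NFE2L2 (NRF2) activates the oxidative stress response, NFE2L1 (NRF1) maintains proteasome gene expression, and BACH1 represses HMOX1, the gene of heme oxygenase. NFIL3 (E4BP4) is a repressor that competes with the bZIP activators DBP, TEF and HLF at D-box sites (TTANGTAA) of the circadian system.

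Promoter sequences are shown for BACH1, NFIL3, NFE2L3 and CEBPA, whose transcripts moved in both lines, so that the letters of these sites can be read beside the counts. NFE2L1, which also moved in both, had no match and is not shown. RefSeq promoters (GRCh38.p14, 250 bases before to 50 after a transcript start) were found for 9 of the 10 members, all but CEBPD, with 16 windows between them. Each line below runs 5′ to 3′ on the strand of the gene, in lower case, with matches to the letters searched in capitals, and holds no exon of its gene in the count table unless stated. BACH1 is on the plus strand at chr21:29298672-29298880, and its capitals mark an ETS site and, at the end, an AP-1 site; the last 10 bases lie inside an exon of the count table. NFIL3 is on the minus strand and is shown at an outer start (chr9:91424627-91424876), where capitals mark a C/EBP site, and at an inner start (chr9:91423863-91424082), where there was no match. NFE2L3 (plus strand, chr7:26151948-26152197) has a C/EBP site in capitals, and CEBPA (minus strand, chr19:33302565-33302784), the member that fell most in TC71, had no match.
BACH1: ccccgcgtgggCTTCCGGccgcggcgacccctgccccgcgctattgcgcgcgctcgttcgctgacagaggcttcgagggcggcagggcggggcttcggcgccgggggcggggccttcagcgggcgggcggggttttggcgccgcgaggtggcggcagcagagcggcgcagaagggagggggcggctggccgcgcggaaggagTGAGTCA
NFIL3 outer start: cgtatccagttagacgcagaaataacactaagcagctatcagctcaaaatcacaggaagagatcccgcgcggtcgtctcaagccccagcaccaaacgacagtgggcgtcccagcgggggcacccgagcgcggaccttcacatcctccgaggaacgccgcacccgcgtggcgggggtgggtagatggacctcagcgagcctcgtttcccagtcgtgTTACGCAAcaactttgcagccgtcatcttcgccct
NFIL3 inner start: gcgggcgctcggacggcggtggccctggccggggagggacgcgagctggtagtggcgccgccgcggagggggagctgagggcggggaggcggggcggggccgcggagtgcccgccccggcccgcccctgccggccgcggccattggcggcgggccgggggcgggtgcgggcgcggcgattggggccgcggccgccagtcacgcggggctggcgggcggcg
NFE2L3: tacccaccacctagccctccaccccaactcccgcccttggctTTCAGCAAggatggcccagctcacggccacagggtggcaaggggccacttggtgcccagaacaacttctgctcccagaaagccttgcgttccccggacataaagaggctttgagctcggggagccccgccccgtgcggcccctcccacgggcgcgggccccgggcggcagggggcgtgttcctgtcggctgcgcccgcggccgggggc
CEBPA: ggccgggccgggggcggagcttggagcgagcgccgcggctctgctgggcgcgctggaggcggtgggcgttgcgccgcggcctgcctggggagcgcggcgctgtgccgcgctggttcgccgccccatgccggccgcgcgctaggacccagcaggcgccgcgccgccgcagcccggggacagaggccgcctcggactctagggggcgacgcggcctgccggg

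Sites of 6 kinds were searched on both strands of the 16 windows and of all 35116 RefSeq promoters of that length. An AP-1 site (TGANTCA) was in 1 member window, that of BACH1, where it began 48 bases before the RefSeq start, and in 7.71% of all promoters. A cyclic AMP response element (TGACGTCA) was in 1 window, that of BACH2, 82 bases before the start, and in 1.85% of all promoters. The antioxidant response element core (TGACNNNGC) was in 1 window, at CEBPB, and in 13.3% of all promoters. C/EBP sites (TTGCNNAA) were in 2 windows, at NFIL3 and NFE2L3, against 10.5% of promoters, and ETS sites (CCGGAAG) in 3 windows, 2 of BACH1 and 1 of NFE2L2, against 10.3%. The D-box was in 0 member windows and 2.18% of promoters. An antioxidant response element core can overlap an AP-1 site, since both begin with the same letters. These matches describe letters in short windows, and binding was not measured. The RefSeq starts of NFE2L2 and BACH1 lie more than 100 kb inside the span that the count table gives these genes, so other starts of them were not searched.

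The samples as a whole were examined first. Total counts ran from 42860665 to 60853649 per library, with both mates of a read pair counted. JUN and FOS, whose counts sum transgene and endogenous transcripts, rose with doxycycline in both lines, JUN from 21.6 to 474 CPM (counts of a gene per 1000000 counts of the library) on average in EW8 and from 20.7 to 756 CPM in TC71, and FOS from 36.8 to 1080 CPM and from 11.7 to 1580 CPM. All 10 Ewing sarcoma markers were above the floor in every group, with a summed level between 2470 and 3110 CPM. The floor was 6 counts, or 3 read pairs, per library. By an adjusted p under 0.05 in edgeR's test, 7 of the 10 markers were lower and 1 higher in EW8 (22% and 21.9% of all genes tested). In TC71, 6 were lower and 2 higher (20.4% and 25.1%). The median log2 fold changes of the markers were -0.62 and -0.33, beside -0.03 and 0 for all genes. PAX7 was past the fold limit of 1 in both lines (log2 fold changes -1.25 and -1.27). LIPI passed that limit in EW8 (-1.40) and not in TC71 (-0.65), where BCL11B was called as well once vehicle replicate 1 was left out. Endothelial markers were called higher for 3 of 5 genes in EW8, beside 11.4% of all genes tested. Their sum there went from between 7.69 and 8.72 to between 45.6 and 51 CPM. In TC71, 4 of 5 were called higher, beside 12.3%, and the sum went from at most 0.382 to at most 5.19 CPM. With vehicle, 4 of the 5 were at the floor in TC71, PECAM1 and VWF at 0 in all libraries. Genes at the floor could not be called lower, so the TC71 count does not describe the list. Epithelial markers summed to between 9.72 and 10.2 CPM with vehicle and between 50.7 and 54.9 CPM with doxycycline in EW8, where KRT8 and KRT18 were called higher (2.67 and 2.15), and to between 176 and 241 CPM in TC71, where EPCAM was called (4.05). Leukocyte markers summed to between 65.1 and 80.3 CPM in EW8, nearly all of it PTPRC, and to at most 0.66 CPM in TC71, and 0 of the 3 tested were called in either line (DESeq2 also called 0; before adjustment, a p under 0.05 was reached by 1 higher and 1 lower gene in EW8 and by 1 lower gene in TC71). The part of other cell types in the results below was not tested, and in bulk RNA fewer cells of a type and less RNA per cell cannot be told apart.

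One library stood apart. TC71 vehicle replicate 1 deviated from its group by 0.283 on the log2 scale (root mean square over 14647 genes with at least 10 counts in every library), against 0.164 to 0.218 for the other 11. It held the lowest of the 3 TC71 vehicle values for 8 of the 9 members with counts there, all but BACH1, and for 40.3% of all genes with counts. Members' values without it are given below where its absence changed a call or turned or moved a TC71 response or a difference between the lines by over 1.5 times.

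With c-Jun and c-Fos induced, 4 members rose in both lines: NFIL3, BACH1, NFE2L3 and NFE2L1. The C/EBP genes fell or did not pass the test: CEBPA fell in both lines, and CEBPB and CEBPD fell in EW8. A gene is said to rise or fall here where the adjusted p of edgeR's quasi-likelihood test was under 0.05 (Benjamini-Hochberg over all 21013 genes tested), and it is called where its log2 fold change also exceeded 1 in size. In EW8, 7 of 10 members passed the adjusted p, beside 43.9% of all genes tested; 4 were higher (21.9% of all genes) and 3 lower (22%). In TC71, 6 of 10 passed, beside 45.6%; 4 were higher (25.1%) and 2 lower (20.4%). With the fold limit, the calls were NFIL3 in EW8, beside 14.8% of all genes (11.4% higher and 3.38% lower), and NFIL3 and CEBPA in TC71, beside 16% (12.3% higher and 3.67% lower). With so large a share of all genes moving, the number of members that moved is not read as a result about them. The libraries of the groups did not overlap for 7 members in EW8 (56% of all genes) and 6 in TC71 (50.7%). The median log2 fold change of the members was 0.23 in EW8 and 0.13 in TC71 (0.19 over the 9 with counts), beside -0.03 and 0 for all genes. Without TC71 vehicle replicate 1, 8 members passed in TC71, CEBPB and CEBPG being added as lower.

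**Figure D1:**
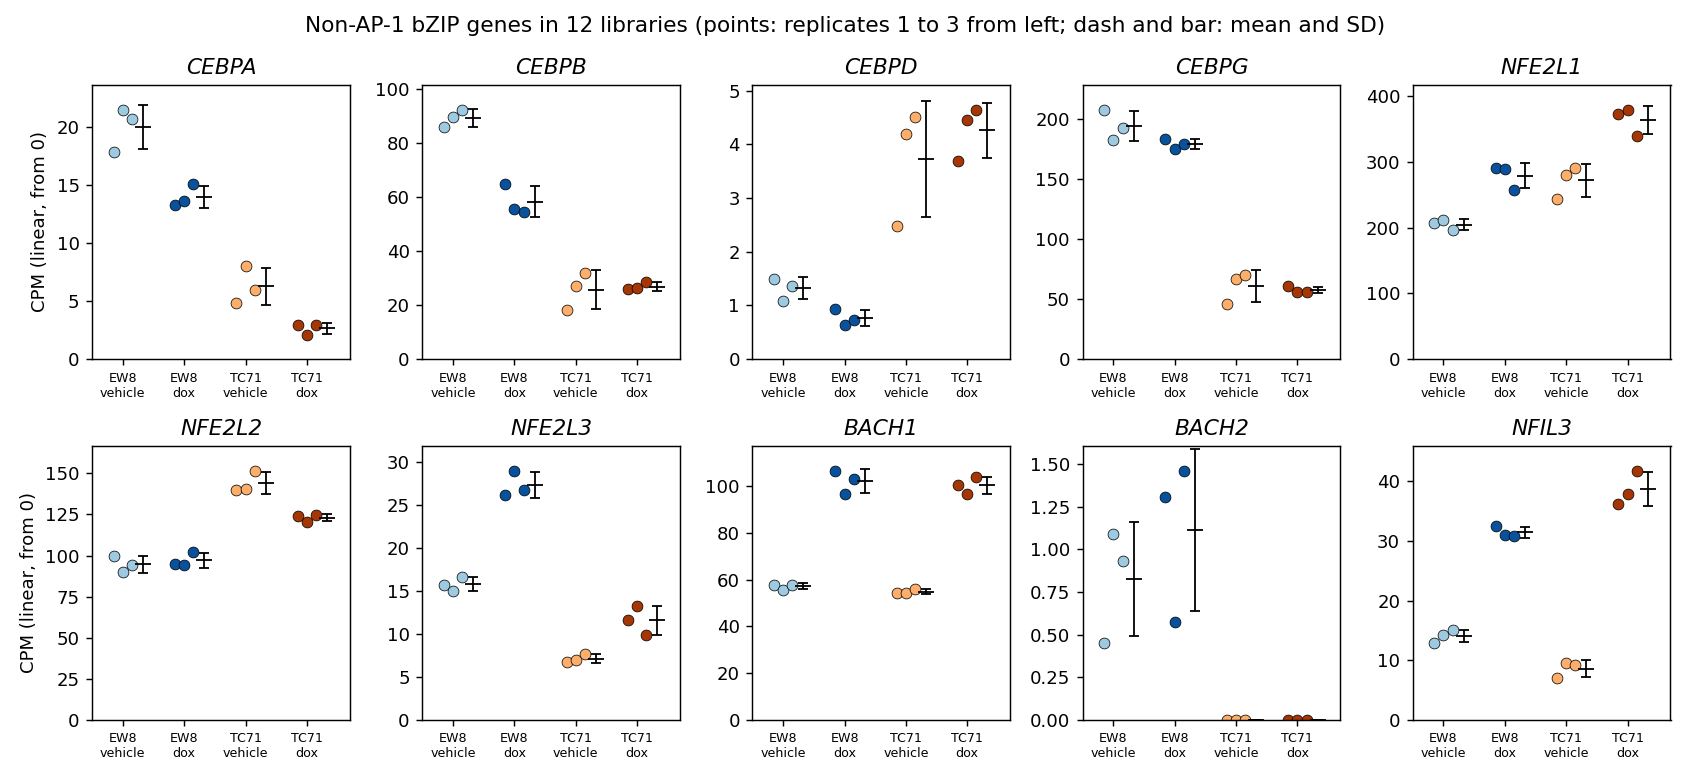
CPM (linear axis from 0, a scale of its own in each panel) of the 10 genes in the 12 libraries, with the mean and SD of 3 libraries beside each group. NFIL3, BACH1, NFE2L3 and NFE2L1 were higher in every doxycycline library than in every vehicle library of the same line, and BACH2 was at 0 in all 6 TC71 libraries.

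NFIL3 had the largest fold change of the members with a value in both lines. In EW8 it was at 12.9, 14.25 and 14.98 CPM in vehicle replicates 1 to 3 and at 32.47, 31.03 and 30.76 CPM in the doxycycline replicates. In TC71 it was at 6.95, 9.534 and 9.238 CPM with vehicle and at 36.22, 37.92 and 41.79 CPM with doxycycline. Every doxycycline library thus lay above every vehicle library, and the vehicle libraries of TC71 lay below those of EW8. The log2 fold change was 1.16 (adjusted p 8.78e-08, SE 0.11) in EW8, a 2.24-fold rise, and 2.17 (adjusted p 1.69e-11, SE 0.11) in TC71, a 4.5-fold rise. The response was larger in TC71 by 1.01 on the log2 scale (adjusted p 0.000124, SE 0.16). That difference passed the adjusted p in all 20 alternatives, with adjusted p up to 0.0029, but it sat at the fold limit and was under it in 13 of them; the libraries whose absence did this were TC71 vehicle replicates 1 (0.75) and 3, TC71 doxycycline replicate 3, EW8 vehicle replicates 2 and 3 and all 3 EW8 doxycycline replicates. NFIL3 (ENSG00000165030.3, chromosome 9, 91409045 to 91423862, minus strand, protein coding) shares no exon with another gene.

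BACH1, a heme-regulated repressor, rose from near 55 to near 100 CPM in both lines. In EW8 it went from 57.76, 55.62 and 57.84 CPM to 106.6, 96.79 and 103.2 CPM. In TC71 it went from 54.27, 54.08 and 55.99 CPM to 100.4, 96.45 and 103.9 CPM. The doxycycline means were 102 ± 4.99 and 100 ± 3.75 CPM (SD, n = 3), and vehicle and doxycycline libraries did not overlap. The log2 fold changes were 0.84 (adjusted p 1.19e-09, SE 0.059) and 0.87 (adjusted p 5.87e-10, SE 0.059), or 1.79-fold and 1.83-fold, short of the fold limit. No difference between the responses was detected (0.03, 95% interval -0.14 to 0.20, adjusted p 0.867), nor between the lines with vehicle (-0.06, interval -0.18 to 0.06) or doxycycline (-0.03, interval -0.15 to 0.09). Without TC71 vehicle replicate 1 the difference of the responses was -0.10 (adjusted p 0.455) and that of the lines with vehicle 0.06, neither past the threshold. Between the lines BACH1 was the 1 member of 10 that did not pass. These intervals bound a difference and do not show that the lines are equal. BACH1 (ENSG00000156273.15, chromosome 21, 29194071 to 29630751, plus strand) shares 4.5% of its exon length with LINC00189 and GRIK1.

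BACH2, a BACH repressor best known from B lymphocytes, was low in EW8 and not detected in TC71. In EW8 the vehicle libraries held 20, 50 and 52 counts of it and the doxycycline libraries 73, 29 and 64 (0.4511 to 1.09 CPM and 0.5731 to 1.462 CPM). The groups overlapped, and the log2 fold change of 0.43 (adjusted p 0.584, SE 0.55) did not pass. All 6 TC71 libraries held 0 counts, which allows up to 6 counts in each, so no response is given there. Against that floor, BACH2 was at least 7.08-fold lower in TC71 than in EW8 with vehicle and at least 7.66-fold lower with doxycycline. BACH2 (ENSG00000112182.14, chromosome 6, 89926529 to 90296908, minus strand) shares 4.05% of its exon length with another gene.

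Of the cap'n'collar factors, NFE2L1 and NFE2L3 rose in both lines and NFE2L2 did not. NFE2L1, which is made as a membrane-bound protein of the endoplasmic reticulum, went from 206.5, 211.4 and 196 CPM to 290, 289.7 and 257.3 CPM in EW8. In TC71 it went from 243.6, 280.4 and 291.4 CPM to 373.4, 379.2 and 339.4 CPM. The doxycycline libraries lay above the vehicle libraries in both, with log2 fold changes of 0.45 (adjusted p 3.66e-05, SE 0.07) and 0.42 (adjusted p 5.98e-05, SE 0.069). Without TC71 vehicle replicate 1, the TC71 value was 0.27, and the difference between the lines, -0.03 with all libraries (interval -0.23 to 0.18, adjusted p 0.919), became -0.23 and passed (adjusted p 0.0359). NFE2L1 (ENSG00000082641.15, chromosome 17, 48048329 to 48061487, plus strand) shares 3.3% of its exon length with an antisense gene.

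NFE2L3, close in structure to NFE2L1, went from 15.7, 15.04 and 16.65 CPM to 26.19, 29.03 and 26.74 CPM in EW8. In TC71 it went from 6.702, 6.957 and 7.685 CPM to 11.61, 13.24 and 9.874 CPM. Levels in TC71 were lower throughout, and even its doxycycline libraries lay below the EW8 vehicle libraries. The log2 fold changes were 0.79 (adjusted p 1.39e-05, SE 0.11) and 0.70 (adjusted p 7.38e-05, SE 0.12), with a difference of -0.09 (interval -0.43 to 0.25, adjusted p 0.792) that was -0.25 without TC71 vehicle replicate 1 (adjusted p 0.303). NFE2L3 (ENSG00000050344.8, chromosome 7, 26152240 to 26187125, plus strand) shares no exon with another gene.

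NFE2L2 was at 99.73, 89.7 and 94.27 CPM with vehicle and 94.6, 94.17 and 102.2 CPM with doxycycline in EW8, where the groups overlapped (log2 fold change 0.04, interval -0.09 to 0.16, adjusted p 0.666). In TC71 it fell from 139.8, 140.6 and 151.7 CPM to 123.9, 120.5 and 124.6 CPM, with no overlap. The change was small, -0.23 on the log2 scale (adjusted p 0.00359, SE 0.059), and held its side of the threshold in all 21 alternatives, between -0.33 and -0.21. The responses differed by -0.26 (adjusted p 0.032, SE 0.083), a difference that passed in 16 of 20 alternatives. It was -0.41 without TC71 vehicle replicate 1 and did not pass without EW8 vehicle replicate 2 (-0.23) or TC71 doxycycline replicate 1 or 2 (-0.27 and -0.25), with adjusted p up to 0.0775. NFE2L2 (ENSG00000116044.15, chromosome 2, 177227595 to 177392697, minus strand) shares 20.9% of its exon length with other genes, AGPS among them, and reads there were not counted for either gene.

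CEBPA, which drives adipocyte and granulocyte differentiation and restrains proliferation, fell in both lines. In EW8 it went from 17.82, 21.47 and 20.66 CPM to 13.26, 13.62 and 15.05 CPM. In TC71 it started lower, at 4.85, 8.004 and 5.939 CPM, and went to 2.933, 2.103 and 2.912 CPM. Vehicle and doxycycline libraries did not overlap in either line. The log2 fold change was -0.52 (adjusted p 0.0132, SE 0.16) in EW8, passing in 17 of 21 alternatives, and -1.24 (adjusted p 1.52e-05, SE 0.18) in TC71, called in all 21 with values from -1.48 to -1.02. The EW8 fall did not pass the adjusted p without vehicle replicate 2 or 3 or doxycycline replicate 1 or 2, with values between -0.46 and -0.43 and adjusted p up to 0.0971. The difference of the responses, -0.73 (adjusted p 0.0416, SE 0.24), passed in 13 of 20 alternatives, from -1.01 without TC71 vehicle replicate 1 to -0.51 without TC71 vehicle replicate 2. Besides the last, the libraries without which it did not pass were EW8 vehicle replicates 1 and 2, EW8 doxycycline replicate 3 and TC71 doxycycline replicates 1 and 2, with adjusted p up to 0.127. CEBPA (ENSG00000245848.2, chromosome 19, 33299934 to 33302564, minus strand) is a single exon, 43.4% of which overlaps 2 genes on the plus strand, where reads were not counted.

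CEBPB, a mediator of inflammatory and acute-phase transcription, was with CEBPG the most abundant member per exon length in EW8 with vehicle. There it fell from 85.91, 89.59 and 92.4 CPM to 64.9, 55.73 and 54.56 CPM. In TC71 it was at 18.06, 27.18 and 32.04 CPM with vehicle and 25.79, 26.19 and 28.6 CPM with doxycycline. The EW8 groups were well apart (log2 fold change -0.61, adjusted p 0.00099, SE 0.13, past the adjusted p in all 21 alternatives), and the TC71 groups overlapped (0.06, interval -0.23 to 0.35, adjusted p 0.773). Without TC71 vehicle replicate 1 the TC71 value turned to -0.22 and passed (adjusted p 0.0397). The difference between the lines, 0.67 (adjusted p 0.0188, SE 0.19), passed in 15 of 20 alternatives and was 0.35 without that library. It did not pass without EW8 vehicle replicate 3, any 1 of the EW8 doxycycline replicates or TC71 doxycycline replicate 3 (0.52 to 0.64, adjusted p up to 0.132). CEBPB (ENSG00000172216.5, chromosome 20, 50190734 to 50192689, plus strand) is a single exon, 11.8% of which overlaps CEBPB-AS1 on the other strand.

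CEBPD, which acts with CEBPB in the acute-phase response, was the lowest of the 4 C/EBP members in EW8. It went there from 1.489, 1.09 and 1.365 CPM (66, 50 and 76 counts) to 0.9308, 0.6324 and 0.7308 CPM (52, 32 and 32 counts). In TC71 it was at 2.482, 4.187 and 4.503 CPM with vehicle and 3.685, 4.445 and 4.641 CPM with doxycycline. The EW8 fall of -0.78 (adjusted p 0.033, SE 0.28) rested on few counts and passed in 15 of 21 alternatives, with adjusted p up to 0.164. It did not pass without EW8 vehicle replicate 1 or 3 or without doxycycline replicate 2 or 3. The TC71 value was 0.19 (interval -0.33 to 0.71, adjusted p 0.573), with overlapping groups, and -0.11 without TC71 vehicle replicate 1. The difference of 0.97 (SE 0.37) did not pass (adjusted p 0.0821) and was 0.62 without that library (adjusted p 0.231). CEBPD (ENSG00000221869.4, chromosome 8, 47736909 to 47739086, minus strand) is a single exon with no overlap.

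CEBPG was the 1 of the 4 C/EBP members that passed in neither line. EW8 had 207.9, 183.1 and 193 CPM with vehicle and 183.3, 175.5 and 179.6 CPM with doxycycline. TC71 had 45.86, 66.57 and 70.31 CPM with vehicle and 60.72, 56.11 and 55.92 CPM with doxycycline. Groups overlapped in both lines, and neither change passed: -0.12 (interval -0.34 to 0.10, adjusted p 0.409) and -0.08 (interval -0.31 to 0.15, adjusted p 0.587). In TC71 this depended on a single library, since without vehicle replicate 1 the change was -0.33 and passed (adjusted p 7.49e-05), and so did the difference between the lines (-0.26, adjusted p 0.0226). Other bZIP genes of the integrated stress response, chosen after their values were seen, were also lowest there among the TC71 vehicle libraries. ATF4, an activator of stress genes that can pair with C/EBP proteins, was at 457 CPM in replicate 1 and at 719 and 883 CPM in replicates 2 and 3. DDIT3 (CHOP) was at 5 CPM against 6.63 and 16.8 CPM. The TC71 doxycycline libraries were near replicate 1, at 490 to 520 CPM for ATF4 and 4.96 to 5.69 CPM for DDIT3. The part of the state of any of these vehicle libraries in the result was not tested. CEBPG (ENSG00000153879.8, chromosome 19, 33373330 to 33382686, plus strand) shares no exon with another gene.

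**Figure D2:**
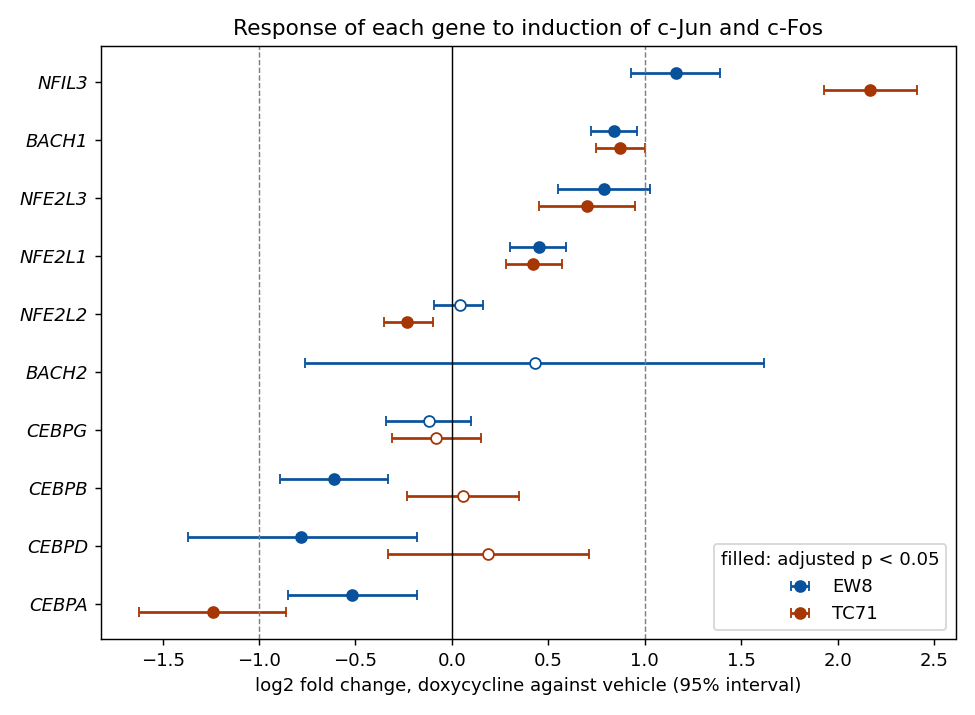
Log2 fold change of doxycycline against vehicle for each gene in EW8 (blue) and TC71 (brown), with 95% intervals from the edgeR fit; filled points passed an adjusted p of 0.05 and dashed lines mark the fold limit. NFIL3, BACH1, NFE2L3 and NFE2L1 lie to the right of 0 in both lines and CEBPA to the left in both; BACH2 has no TC71 value because all libraries there were at 0.

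The responses of the lines were tested against each other directly. For 4 of 10 members the difference passed the adjusted p, beside 19.3% of all genes: NFIL3 and CEBPB were more positive in TC71 (12.2% of all genes) and CEBPA and NFE2L2 more negative (7.07%). With the fold limit only NFIL3 was called, beside 7.05% of all genes (4.18% more positive). With that library of TC71 vehicle (replicate 1) left out, 6 members passed, CEBPG and NFE2L1 being added, and the 1 member past the fold limit was CEBPA (-1.01, adjusted p 0.000643) in place of NFIL3 (0.75).

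The lines also differed in the levels from which these genes started. With vehicle, 9 of 10 members passed the adjusted p between the lines, beside 61.7% of all genes, 3 higher in TC71 (28.2%) and 6 lower (33.5%). With the fold limit 6 were called, beside 30.6%, 1 higher (11.6%) and 5 lower (18.9%). CEBPD was 2.83-fold higher in TC71 (log2 difference 1.5, adjusted p 6.36e-05, SE 0.26). CEBPB was 3.47-fold lower (-1.79, adjusted p 2.13e-09, SE 0.14), CEBPG 3.19-fold lower (-1.68, adjusted p 2.02e-10, SE 0.11), CEBPA 3.18-fold lower (-1.67, adjusted p 6.64e-08, SE 0.17) and NFE2L3 2.22-fold lower (-1.15, adjusted p 9.06e-08, SE 0.12). The other called member, BACH2, is given above as a bound. The C/EBP family was thus split, 3 genes being lower and 1 higher in TC71. NFE2L1 and NFE2L2 were higher in TC71 by less than the fold limit (0.41 and 0.61), and NFIL3 was lower (-0.71, adjusted p 2.49e-05, or -0.47 without TC71 vehicle replicate 1). The same vehicle libraries serve the response of TC71, so these values and the responses above are not independent.

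With doxycycline, again 9 members passed between the lines (62.5% of all genes), 4 higher in TC71 (30.2%) and 5 lower (32.3%). The fold limit left 6 calls (31%), 1 higher (12.6%) and 5 lower (18.4%). CEBPA was 5.27-fold lower in TC71 (-2.40, adjusted p 1.51e-09, SE 0.18), and CEBPD 5.53-fold higher (2.47, adjusted p 3.14e-07, SE 0.28). CEBPB was 2.17-fold lower (-1.12, adjusted p 1.07e-06, SE 0.14), CEBPG 3.12-fold lower (-1.64) and NFE2L3 2.36-fold lower (-1.24). NFIL3, lower in TC71 with vehicle, was higher in TC71 by 0.30 (adjusted p 0.0215, SE 0.11), with all 3 TC71 libraries above the EW8 libraries, and this passed in 11 of 19 alternatives. The libraries without which it did not pass were any 1 of the EW8 doxycycline replicates, the third replicate of either vehicle group and TC71 doxycycline replicate 3 (0.21 to 0.30, adjusted p up to 0.183). Groups did not overlap between the lines for 9 members with vehicle (64.7% of all genes) and for 9 with doxycycline (69.6%).

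To compare genes with each other, CPM were divided by exon length in kilobases (RPKM). The full exon length was used, so genes with exon stretches shared with other genes, where reads were not counted, read low, CEBPA (43.4% of its length) most of all, then NFE2L2 and CEBPB, and the place of CEBPA in the order is not settled by these values. In EW8 with vehicle, CEBPB (45.7 ± 1.66 RPKM, SD, n = 3) and CEBPG (44.1 ± 2.83) came first with overlapping libraries, followed by NFE2L1 (35.1 ± 1.36) and NFE2L2 (15.8 ± 0.84). CEBPA (7.59 ± 0.728) and BACH1 (7.4 ± 0.164) overlapped, and NFIL3 (6.74 ± 0.506), NFE2L3 (3.72 ± 0.191), CEBPD (0.604 ± 0.0938) and BACH2 (0.0843 ± 0.034) came after. With doxycycline NFE2L1 led EW8 (47.9 ± 3.23), ahead of CEBPG (40.7 ± 0.891) and CEBPB (29.9 ± 2.9), and NFIL3 (15.1 ± 0.441) stood just below NFE2L2 (16.2 ± 0.76). In TC71 the cap'n'collar genes led with vehicle, NFE2L1 at 46.7 ± 4.3 RPKM and NFE2L2 at 24.1 ± 1.11, ahead of CEBPG (13.8 ± 2.99) and CEBPB (13.2 ± 3.63), whose libraries overlapped. BACH1 (7.1 ± 0.137) and NFIL3 (4.11 ± 0.678) followed, and CEBPA (2.38 ± 0.609), CEBPD (1.71 ± 0.499) and NFE2L3 (1.67 ± 0.12) formed a run in which neighbours overlapped. With doxycycline NFIL3 (18.5 ± 1.37) stood in TC71 just after NFE2L1 (62.5 ± 3.69) and NFE2L2 (20.6 ± 0.368). It stood ahead of CEBPB (13.7 ± 0.776), CEBPG (13.1 ± 0.616) and BACH1 (13 ± 0.486), which overlapped, while CEBPA was at 1.01 ± 0.18.

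**Figure D3:**
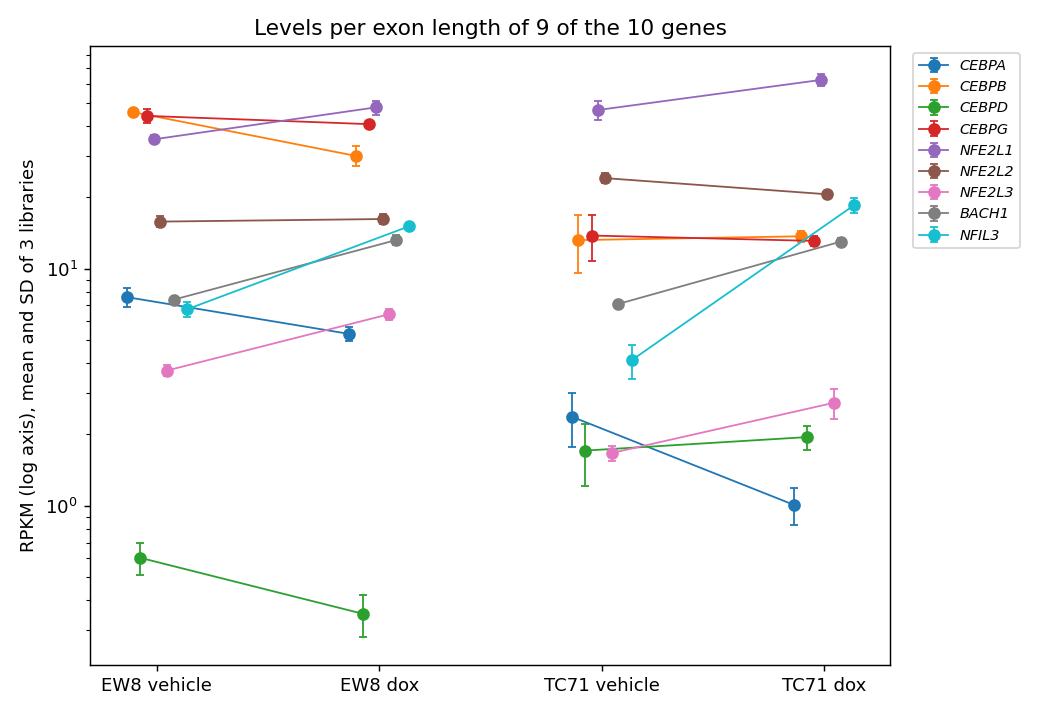
Mean RPKM (log axis) and SD of 3 libraries for 9 of the 10 genes in the 4 groups, with lines joining vehicle and doxycycline of a cell line; BACH2, at 0 in TC71, is left out. NFIL3 and BACH1 climb in both lines, and CEBPB and CEBPG sit near 44 to 46 RPKM in EW8 with vehicle and near 13 to 14 RPKM in TC71.

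The small MAF genes, whose products pair with cap'n'collar and BACH proteins, rose in both lines. Of 10 partner and regulator genes, 2 were called higher in EW8 and 1 in TC71. Of all genes tested, 11.4% in EW8 and 12.3% in TC71 were called higher, and 3.38% and 3.67% lower. Counts in this and the following lists are to be read beside such shares and do not by themselves describe a list. MAFF rose from 2.25 ± 0.179 to 22.4 ± 1.96 CPM in EW8 (3.32 on the log2 scale, adjusted p 1.22e-11, SE 0.17) and less in TC71, from 1.71 ± 0.0944 to 2.82 ± 0.623 CPM (0.72, adjusted p 0.0024, SE 0.18), and this difference passed (-2.60, adjusted p 3.3e-07, SE 0.24). MAFK rose in both lines, by 1.66 (adjusted p 2.07e-09, SE 0.12) and 2.00 (adjusted p 2.22e-10, SE 0.13), and MAFG by 0.78 and 0.37, under the fold limit. KEAP1, the adaptor through which NFE2L2 protein is degraded, was chosen after its values were seen: it was at 0.12 in EW8 (adjusted p 0.147) and fell in TC71 by 0.36 on the log2 scale (adjusted p 0.000135). The median of the 10 was 0.11 in EW8 and 0.23 in TC71, beside -0.03 and 0 for all genes.

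Genes with antioxidant response elements changed unevenly. Of 30, 3 were called in EW8 and 5 in TC71, all higher, beside 11.4% and 12.3% of all genes called higher. The numbers past the adjusted p alone were 11 higher and 6 lower in EW8, and 13 higher and 6 lower in TC71. Of all genes, 21.9% were higher and 22% lower by that measure in EW8, and 25.1% and 20.4% in TC71. AKR1C1 and AKR1C2, aldo-keto reductases so alike in sequence that their reads may be confused, rose by 5.30 and 4.46 in EW8 and by 7.42 and 5.55 in TC71 on the log2 scale. SRXN1 (sulfiredoxin) was at least 2.95-fold higher in EW8, where vehicle libraries were at the floor. In TC71 it rose by 3.42 (SE 0.63) from 0.13 ± 0.0424 CPM, close to the floor of 0.0966 to 0.116 CPM in those vehicle libraries. AKR1B10 was called in TC71, where vehicle libraries were at 0 and the doxycycline libraries averaged 0.287 ± 0.379 CPM. The bound of at least 2.47-fold holds for that mean only, since the groups overlapped. HMOX1, which BACH1 represses, went from 8.04 ± 2.33 to 62.7 ± 5.04 CPM in TC71 (2.96, adjusted p 1.59e-11, SE 0.15) and from 25.5 ± 1.77 to 27.6 ± 2.45 CPM in EW8 (0.12, adjusted p 0.566, SE 0.14), a difference of 2.85 (adjusted p 1.84e-08, SE 0.21). Transcripts of BACH1 rose in both lines, as given above. Its protein was not measured here, and its part in the HMOX1 values was not tested. NQO1, a standard readout of NFE2L2 activity named here after its values were seen, fell in both lines (-0.99 and -0.69). The medians of the list were 0.11 and 0.06. When TC71 vehicle replicate 1 was left out the same 5 genes were called in TC71, and 11 genes were higher and 11 lower by adjusted p alone.

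Proteasome subunit genes, known targets of NFE2L1, stayed under the fold limit. Of 31, edgeR and DESeq2 each called 0 in either line. Before adjustment, a p under 0.05 was reached by 9 higher and 7 lower genes in EW8, and by 9 higher and 8 lower genes in TC71. By adjusted p these were 9 and 4 in EW8 and 7 and 3 in TC71, and the medians were -0.02 and -0.01. Leaving out TC71 vehicle replicate 1 gave 5 higher and 10 lower in TC71. PSMD2, named after its values were seen, rose by 0.84 (adjusted p 1.47e-10) in EW8. In TC71 it rose by 1.00 (adjusted p 1.03e-11), at the fold limit but not called.

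**Figure D4:**
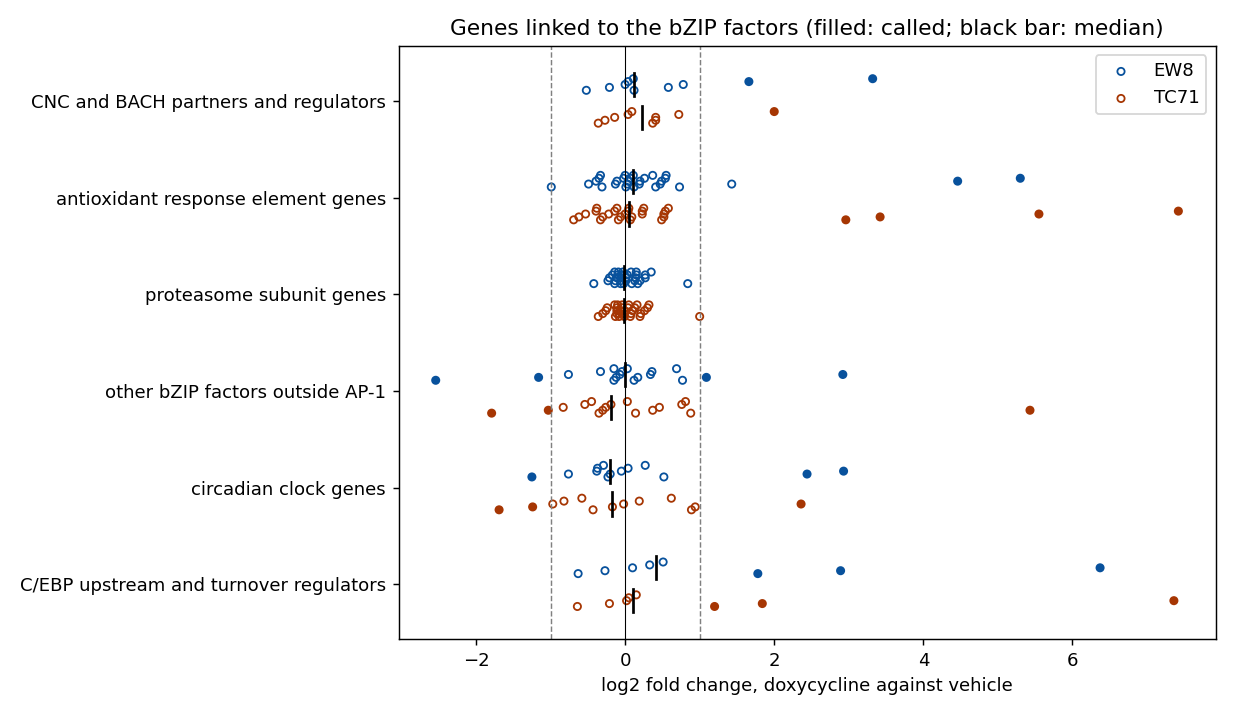
Log2 fold change of doxycycline against vehicle for the genes of 6 lists linked to the bZIP factors, EW8 (blue) above TC71 (brown); filled points were called, black bars are medians of the points shown and dashed lines mark the fold limit. Genes with a group at the floor have no point, so 29 of 30 antioxidant response element genes and, of 20 other bZIP genes, 18 in EW8 and 17 in TC71 are drawn. Most proteasome genes lie close to 0, with medians of -0.02 and -0.01, and the called antioxidant response element genes drawn in TC71 (AKR1C1, AKR1C2, SRXN1 and HMOX1) lie to the right of the others on that list.

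The inflammatory genes CXCL8 and IL6 reached higher levels with doxycycline in EW8 than in TC71, and PTGS2 (cyclooxygenase-2), named after its values were seen, was higher in TC71 (2.34 ± 0.379 and 13 ± 1.15 CPM). Of 20 acute-phase and inflammatory genes, 11 passed the filter on low counts, and of these 10 were called higher in EW8 and 8 in TC71. Between the lines with doxycycline, 9 of the 11 were called lower in TC71 (18.4% of all genes). Only PTGS2 was called higher there (12.6% of all genes), as it also was with vehicle. Since a gene at the floor with vehicle could pass that filter mainly by rising, these counts do not describe the list. CXCL8 (interleukin-8) was at least 5950-fold higher in EW8, reaching 805 ± 75 CPM, and at least 21.3-fold higher in TC71, reaching 2.48 ± 0.195 CPM. IL6 was at least 39.9-fold higher in EW8 (5.4 ± 0.845 CPM) and was at 0 in all TC71 libraries. PTX3 (pentraxin 3) rose in TC71 from 0.0559 ± 0.0661 CPM, near the floor, to 12.7 ± 1.93 CPM. It was at least 195-fold higher in EW8, where it reached 26.4 ± 4.25 CPM. Complement C3, a liver acute-phase gene, rose by 2.70 (adjusted p 3.94e-12, SE 0.13) in EW8 and 2.71 (adjusted p 1.03e-06, SE 0.32) in TC71, where it stayed under 1 CPM on average. CCL2 rose by 2.89 (SE 0.48) in EW8 and was at least 1.34-fold higher in TC71. SOCS3, a brake on cytokine signalling, rose by 3.65 in EW8 and 2.30 in TC71, a difference of -1.35 (adjusted p 2.79e-05, SE 0.18).

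Of 10 adipocyte and myeloid genes that C/EBP factors are known to activate, 5 were tested, and 2 were called higher in each line. As for the inflammatory genes, a low gene could pass the filter mainly by rising, so this count does not describe the list. CSF1R, the receptor of macrophage colony-stimulating factor, rose in both (1.80, SE 0.36, and 2.04, SE 0.39). PPARG, the partner of CEBPA in adipocyte differentiation, rose by 1.19 in EW8 (adjusted p 0.00242, SE 0.29), while TC71 had it at the floor, and CD36, a fatty acid receptor, rose by 3.55 (adjusted p 0.000881, SE 0.77) in TC71. These genes stayed low: the list summed to at most 11.2 CPM in EW8 and 3.96 CPM in TC71.

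Of 8 genes that act upstream of C/EBP factors or in their turnover, the same 3 were called higher in both lines. IL6R, the receptor of interleukin-6, rose from 0.892 ± 0.367 to 75.5 ± 5.73 CPM in EW8 (6.37, adjusted p 1.74e-14, SE 0.20) and from 0.457 ± 0.246 to 77.3 ± 4.66 CPM in TC71 (7.36, adjusted p 5.08e-15, SE 0.22). IL6ST, its signalling chain gp130, rose by 1.78 and 1.20. TRIB1, a pseudokinase that directs C/EBP-alpha to degradation, rose from 22.7 ± 1.09 to 169 ± 5.31 CPM in EW8 (2.89, adjusted p 1.7e-16, SE 0.066) and from 57.1 ± 4.11 to 204 ± 1.93 CPM in TC71 (1.84, adjusted p 2.83e-14, SE 0.062). The medians of the 8 were 0.42 and 0.10.

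DBP and TEF, activators at D-box sites, fell in both lines. Of 20 other bZIP genes outside the Jun and Fos families, 18 were tested, with 2 called higher and 2 lower in EW8 and 1 higher and 2 lower in TC71. Some of the 20, such as ATF4, belong to the ATF family, which the authors place in AP-1. DBP fell from 10.3 ± 0.796 to 4.6 ± 0.466 CPM in EW8 (-1.16, adjusted p 2.86e-07, SE 0.12) and from 26.6 ± 1.57 to 7.68 ± 0.502 CPM in TC71 (-1.79, adjusted p 4.07e-10, SE 0.12). TEF fell by 0.76 in EW8 (adjusted p 3.74e-05) and was called in TC71 (-1.03, adjusted p 7.54e-07, SE 0.12). HLF fell in EW8 from 0.872 ± 0.265 to 0.148 ± 0.148 CPM (-2.54, adjusted p 0.0104, SE 0.75), and TC71 libraries had it at the floor. CREB3L1, a stress sensor of the secretory pathway, rose by 2.92 (SE 0.31) in EW8 and 5.43 (SE 0.39) in TC71, and XBP1, a regulator of the unfolded protein response, rose in EW8 (1.09, SE 0.12) and was at 0.03 in TC71, a difference that passed (-1.06, adjusted p 9.29e-05, SE 0.16). DDIT3 was called lower in TC71 as well once vehicle replicate 1 was left out.

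Of 13 circadian clock genes, 2 were called higher and 1 lower in EW8, and 1 higher and 2 lower in TC71. BHLHE40 and BHLHE41 are repressors of the clock. BHLHE40 rose by 2.93 (adjusted p 1.24e-13, SE 0.11) in EW8 and 2.36 (adjusted p 1.05e-12, SE 0.10) in TC71, and BHLHE41 by 2.44 in EW8 and 0.62 in TC71. PER3, a period gene, fell by a like amount in both (-1.25, SE 0.18, and -1.24, SE 0.18), and CIART fell in TC71 (-1.69, adjusted p 0.000565, SE 0.35). The medians were -0.20 and -0.17, beside -0.03 and 0 for all genes.

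The genes whose pattern over the 12 libraries was most like that of a called member were found by the root mean square difference of centred log2 CPM, among 14870 protein-coding genes. NFIL3 was closest to NIBAN2 (0.141, log2 fold changes 1.42 in EW8 and 2.06 in TC71) and TRAM2 (0.153, 1.26 and 2.09), where the median gene was at 1.06. CEBPA was closest to TP73 (0.224, -0.61 and -1.41) and DOC2A (0.225, -0.96 and -1.23), with a median of 1.3. The 12 libraries fall into 2 lines and 2 treatments, so that likeness rests mostly on 4 group means.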

How the data were processed

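RNA of the 4 groups was sequenced as read pairs, checked with FastQC, aligned with STAR to hg38 and counted per gene over GENCODE release 29 exons with featureCounts 2.0.1 by the authors. The deposited values were raw counts, not normalized. Per the file headers, no option for paired ends, strandedness, multi-mapping or overlap was set, so each mate counts once, antisense reads are not separated, and reads shared by genes were left out. The authors tested with DESeq2.

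Here all 12 libraries entered 1 edgeR 4.0.16 quasi-likelihood fit (R 4.3.3) with the 4 groups as levels, after filterByExpr (21013 genes, 99.95% of counts) and TMM scaling. Benjamini-Hochberg adjustment ran over all genes tested, and a call needed both an adjusted p under 0.05 and a log2 fold change larger in size than 1. CPM uses the TMM-scaled totals, and RPKM the deposited exon length. A group with at most 6 counts in each library was at the floor, and folds against it are bounds. Floors cover counting error only. The scripts were tested on simulated data with 200 changed genes. Alternatives were DESeq2 1.42.0, other scalings and filters, counts divided by 2, each line alone, a replicate block and leaving out each library.

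The members and gene lists were chosen from general knowledge with earlier results of these data known, and support nothing by having been chosen. Named were all members, JUN, FOS, the small MAF genes, the 2 highest and 2 lowest called genes of each list in a line, and the 2 genes nearest in pattern to each called member. Exceptions are named as chosen after their values were seen. Promoters are from RefSeq (GRCh38.p14).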

Additional observations from a re-analysis of the deposited data

Results flagged for a closer look

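The response to doxycycline differed between TC71 and EW8 for 4 members, by a test of the difference itself that 19.3% of all genes passed. On the log2 scale (TC71 minus EW8) it was 1.01 (SE 0.16, adjusted p 0.000124) for NFIL3, which rose in all 3 doxycycline libraries of each line. It was 0.67 (SE 0.19, adjusted p 0.0188) for CEBPB, which fell in EW8 and overlapped between groups in TC71. It was -0.73 (SE 0.24, adjusted p 0.0416) for CEBPA, which fell in both lines. It was -0.26 (SE 0.083, adjusted p 0.032) for NFE2L2, which fell in TC71 and overlapped between groups in EW8. Without TC71 vehicle replicate 1, which stood apart from its group, the values were 0.75, 0.35, -1.01 and -0.41 in the same order. Of 20 alternatives, the difference passed the adjusted p in 20, 15, 13 and 16, again in that order.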

How the results depend on the processing

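The count of members called for the difference between the lines was 1 (NFIL3), beside 7.05% of all genes tested. It fell to 0 with DESeq2, with median-ratio size factors, with library size alone, with at least 10 counts in every library and with counts divided by 2. Leaving out 1 library at a time it ran from 0 to 1. By adjusted p alone that count was 4, and from 2 to 6 without single libraries. Without the fold limit the counts of calls were 7 in EW8, 6 in TC71 and 4 for the difference, beside 43.9%, 45.6% and 19.3% of all genes. Directions reversed for these values near 0: NFE2L2 in EW8 was -0.02 and CEBPB in TC71 -0.03 with library size alone, and the difference between lines was -0.01 for CEBPG and BACH1 with DESeq2 and median-ratio factors, -0.01 for BACH1 with library size alone, and -0.07 for both with at least 10 counts in every library and with counts divided by 2. Among fits without 1 library, CEBPB in TC71 ran from -0.22 to 0.20 and CEBPD in TC71 from -0.11 to 0.30. The difference between lines ran from -0.26 to 0.10 for CEBPG, from -0.11 to 0.06 for BACH1, from -0.23 to 0.02 for NFE2L1 and from -0.25 to 0.01 for NFE2L3. BACH1 between the lines ran from -0.08 to 0.06 with vehicle and from -0.09 to 0 with doxycycline. The cause was not tested. Deviations of same-numbered libraries of a line had correlations from -0.0219 to 0.00268, and those of other pairs ran from -0.019 to 0.0298. They were taken over all genes tested, where low counts add much noise, so they cannot show whether the labels' numbers pair the libraries. With the replicate block, 1, 2 and 1 members were called in EW8, TC71 and for the difference, as without it. The CEBPA difference (-0.71, adjusted p 0.0832) no longer passed with the block. The fits of each line alone hold no test of a difference between the lines. BACH2 and CEBPD rest on few counts, and depth limits what can be said of them.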
